A study of Rattus norvegicus with 36 samples.

Results

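Heat shock proteins, J-domain proteins and protein disulfide isomerases were taken from the array by their gene symbols, namely those that begin with Hsp and a family letter or digit, with Dnaja, Dnajb or Dnajc and a number, or with Pdia and a number. The rule found 65 genes, each with 1 probe, of the 13315 genes with a symbol on the array. Of these, 52 were detected on at least 6 arrays and entered the tests, of 9078 genes tested in all. They were measured in total lung RNA of male CDF Fisher 344 rats breathing air with or without crystalline silica (15 mg/m3), 5 days a week and 6 h a day. The 6 groups were silica for 3, 6 and 12 weeks and air for 3, 6 and 12 weeks, with 6 rats and 1 array per rat in each, and the labels give an age of 3 months for every group. The question was which chaperones differ between silica and air lungs at each week, and whether those of the endoplasmic reticulum differ alike with those of the cytosol.

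Chaperones bind unfolded or partly folded chains and release them under the control of ATP and co-chaperones. J-domain (Dnaj) proteins bring clients to Hsp70 and start its ATP hydrolysis, small heat shock proteins (Hspb) hold unfolded chains without ATP, and Pdia enzymes form and rearrange disulfide bonds in the endoplasmic reticulum. Cytosolic members are classic targets of heat shock factor, while members of the endoplasmic reticulum are induced in the unfolded protein response by ATF6 and XBP1, and the lung's surfactant-secreting and antibody-secreting cells have a large endoplasmic reticulum.

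Promoters of 6 members are shown because they hold the letters of the elements after which these responses are known. Each runs from 250 bases before to 50 bases after the gene's start in RefSeq, build GRCr8, read along the gene, and RefSeq had such an entry for 52 of the 65 members. Capitals mark the searched motifs, which were sought on both strands. The heat shock element was spelled GAA, TTC and GAA with 2 bases of any kind between neighbours, the ER stress element (ERSE) CCAAT and CCACG with 9 bases of any kind between, and ERSE-II ATTGG and CCACG with 1 base of any kind between. Both ER stress motifs hold CCACG, and CCAAT or its reverse complement, so they overlap with matches to those letters alone.
Hspa5: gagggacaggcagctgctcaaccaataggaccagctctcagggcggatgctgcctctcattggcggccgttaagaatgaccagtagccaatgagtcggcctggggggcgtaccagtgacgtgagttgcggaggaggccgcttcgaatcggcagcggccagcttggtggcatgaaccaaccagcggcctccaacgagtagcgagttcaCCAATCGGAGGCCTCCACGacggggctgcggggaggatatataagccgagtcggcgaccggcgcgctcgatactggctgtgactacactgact
Hsp90b1: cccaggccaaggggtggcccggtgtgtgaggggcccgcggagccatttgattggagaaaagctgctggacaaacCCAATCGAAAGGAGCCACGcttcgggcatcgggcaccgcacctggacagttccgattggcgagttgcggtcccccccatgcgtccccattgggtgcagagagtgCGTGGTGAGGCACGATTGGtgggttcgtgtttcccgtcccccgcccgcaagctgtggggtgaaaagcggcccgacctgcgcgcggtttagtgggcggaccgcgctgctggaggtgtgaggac
Dnajc3: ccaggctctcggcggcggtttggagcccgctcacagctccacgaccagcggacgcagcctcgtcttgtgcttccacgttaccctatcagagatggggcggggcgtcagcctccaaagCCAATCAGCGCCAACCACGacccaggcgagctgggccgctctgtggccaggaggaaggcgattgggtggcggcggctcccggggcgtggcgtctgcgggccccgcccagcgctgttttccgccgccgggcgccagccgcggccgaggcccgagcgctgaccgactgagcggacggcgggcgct
Dnajb11: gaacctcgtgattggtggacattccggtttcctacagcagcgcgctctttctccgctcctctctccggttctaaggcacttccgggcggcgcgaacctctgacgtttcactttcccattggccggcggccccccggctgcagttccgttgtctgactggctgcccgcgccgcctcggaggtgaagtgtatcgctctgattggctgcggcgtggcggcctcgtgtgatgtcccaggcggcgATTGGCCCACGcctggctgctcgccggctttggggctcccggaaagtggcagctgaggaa
Dnaja1: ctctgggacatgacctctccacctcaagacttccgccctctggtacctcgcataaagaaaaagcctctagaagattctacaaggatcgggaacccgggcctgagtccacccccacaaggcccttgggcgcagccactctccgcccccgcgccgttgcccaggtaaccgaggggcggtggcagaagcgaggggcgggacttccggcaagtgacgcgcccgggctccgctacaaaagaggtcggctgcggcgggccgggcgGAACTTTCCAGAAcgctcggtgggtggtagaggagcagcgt
Hspe1: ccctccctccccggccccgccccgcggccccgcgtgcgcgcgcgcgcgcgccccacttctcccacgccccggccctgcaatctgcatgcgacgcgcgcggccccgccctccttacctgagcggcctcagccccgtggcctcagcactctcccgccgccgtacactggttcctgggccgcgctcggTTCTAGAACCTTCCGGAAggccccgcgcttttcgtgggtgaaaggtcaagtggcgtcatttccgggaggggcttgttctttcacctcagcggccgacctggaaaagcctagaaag
The Hspa5 window is chr3:38452766-38453065 on the plus strand, that of Hsp90b1 is chr7:23012244-23012543 on the minus strand, and that of Dnajc3 is chr15:102432417-102432716 on the plus strand. Dnajb11 lies at chr11:91672751-91673050 on the minus strand, Dnaja1 at chr5:60638154-60638453 and Hspe1 at chr9:64084077-64084376, both on the plus strand. The ERSE was found in Hspa5, Dnajc3 and, at 2 places, Hsp90b1, and in 0.0657% of the 33469 promoters of this length. ERSE-II was found in Dnajb11 and in 0.0508% of all promoters. The heat shock element was found in Dnaja1, where it begins 9 bases after the start, in Hspe1, which holds 2 overlapping copies in opposite orientation, and in Hsph1, and in 0.798% of all promoters. Hsph1 is not printed because it did not enter the tests. A further motif, the unfolded protein response element, spelled TGAC followed directly by GTGG, was found in Dnajc10, Dnajc25 and 0.595% of all promoters, and in none of the 6 shown. The short CCACG was present in 10 of 10 endoplasmic reticulum members with a promoter and in 14 of 29 members of the cytosol and nucleus, against 31.6% of all promoters. These are matches of letters in a window of 300 bases, not measured binding sites.

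Mean raw intensity ran from 345 to 519 over the 36 arrays, and 48.7% to 53.1% of probes were detected per array. The first principal component, with 54.5% of the variance, set the 12 arrays of 6 weeks (22.7 to 29.8) apart from the others (-25.0 to -8.10), except that air replicate 5 at 3 weeks (8.72) and silica replicate 3 at 12 weeks (15.1) lay between them. Week of exposure and any shared handling of a week's arrays cannot be told apart, so each silica group was compared with the air group of its own week. Results at 3 and 12 weeks are also given without those 2 arrays. The number of arrays limits the precision, and nothing beyond a number for each rat says how the replicates were kept apart. Levels are normalised log2 intensities, and a log2 change is silica minus air with its standard error (SE). In whole lung, fewer cells of a type and less RNA per cell cannot be told apart.

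At 3 weeks, 4 chaperone genes were higher and 1 was lower in silica than in air lungs, of 52 tested. Calls are at an adjusted p under 0.05 in limma over all tested genes, and 13.6% of all tested genes were called in that comparison (7.51% higher, 6.08% lower). Under scaling of the arrays by their median the split was 4 higher and 0 lower, and without the arrays that stand apart it was 5 and 3, with 12.9% of all genes called. At 6 weeks, 5 members rose and 4 fell, where 17.3% of all genes were called (8.8% higher, 8.5% lower), and median scaling left 2 and 0. At 12 weeks, 4 rose and 6 fell, where 25.9% of all genes were called (11.7% higher, 14.2% lower), with 1 and 6 under median scaling and 5 and 7 without silica replicate 3 and the other separate array, where 25.6% of all genes were called. The counts of the main fit are near or below the background, and the share of all genes called under median scaling is not given here. The median log2 change over the 52 members was 0.00 at 3 weeks, 0.01 at 6 weeks and -0.01 at 12 weeks, against -0.00, -0.02 and -0.02 over all tested genes. At an unadjusted p under 0.05, limma passed 16, 21 and 17 members, against 27.8%, 28% and 37% of all tested genes. In all, 17 of the 52 were called at 1 or more weeks (all genes 35.8%), 8 of them higher and 9 lower, none in both directions and none at all 3 weeks (all genes 6.58%). Silica and air lungs did not overlap for 4, 8 and 3 members at 3, 6 and 12 weeks, against 6.19%, 9.81% and 11.4% of all tested genes. Silica was the higher group for 3, 3 and 1 of these, against 3.89%, 5.17% and 5.62% of all genes, and the lower group for 1, 5 and 2, against 2.3%, 4.65% and 5.77%.

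**Figure D1:**
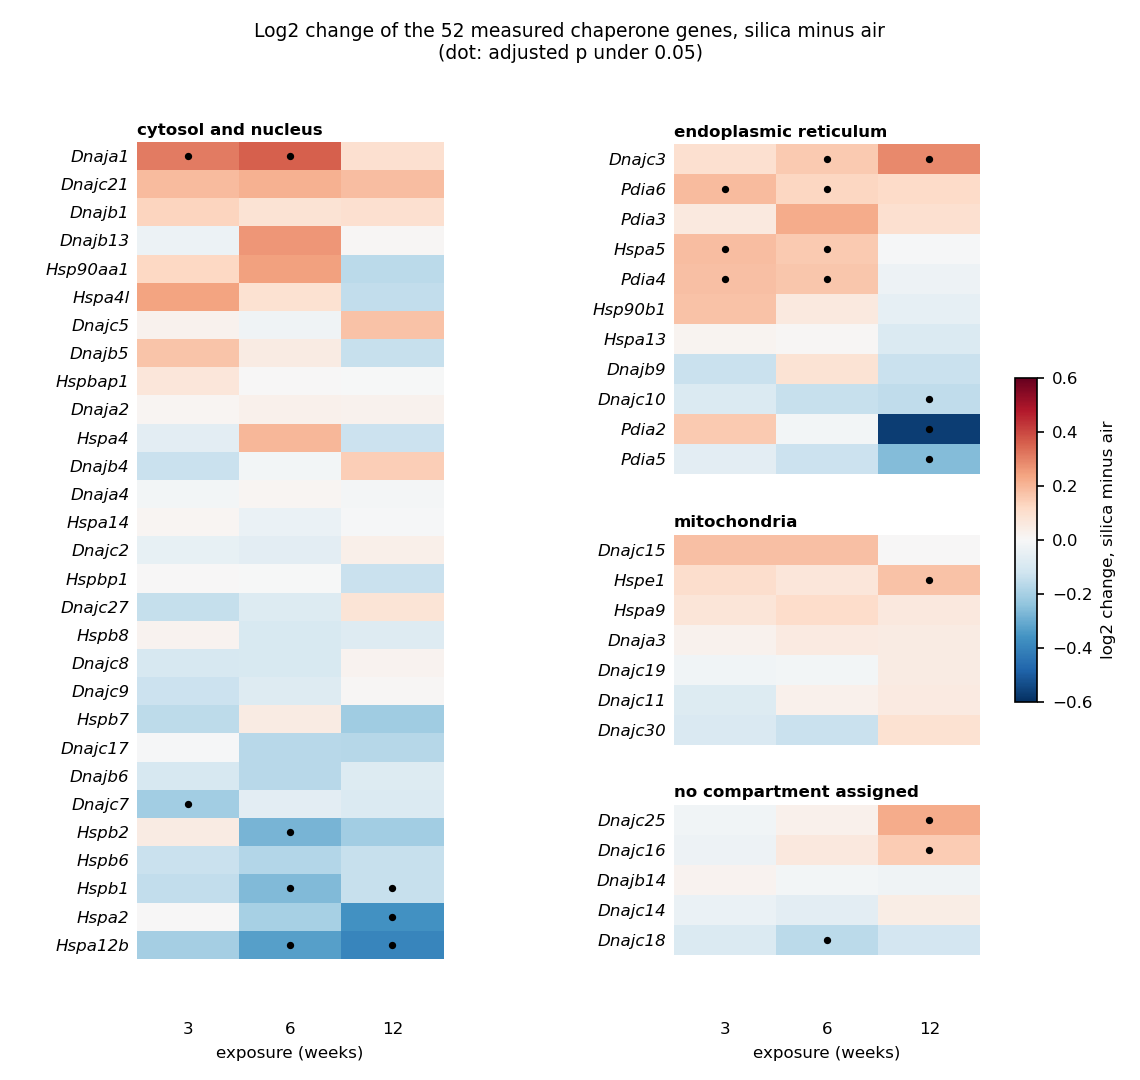
Log2 change, silica minus air, of the 52 tested chaperone genes (down the page, grouped by compartment) at 3, 6 and 12 weeks (across), in red where higher and blue where lower, with a dot where the adjusted p was under 0.05 and n = 6 rats per group. Dnaja1 has dots at 3 and 6 weeks, Pdia6, Hspa5 and Pdia4 likewise, while Pdia5 and Pdia2 have theirs at 12 weeks on the lower side.

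Among the 11 tested chaperones of the endoplasmic reticulum, the called genes at 3 weeks were 3 higher and 0 lower, at 6 weeks 4 and 0, and at 12 weeks 1 and 3. That is 27.3%, 36.4% and 36.4% of them, beside 13.6%, 17.3% and 25.9% of all tested genes, of which 7.51%, 8.8% and 11.7% were higher and 6.08%, 8.5% and 14.2% lower. Hspa5, the Hsp70 of that compartment (BiP), had a lowest, median and highest level of 12.85, 12.90 and 12.95 in silica lungs at 3 weeks, against 12.63, 12.71 and 12.83 in air lungs. All 6 silica lungs lay above all air lungs, by 0.18 ± 0.04 (SE, n = 6 per group, limma adjusted p = 0.00428). At 6 weeks Hspa5 rose by 0.16 ± 0.04 (limma adjusted p = 0.011), with levels of 12.81, 12.85 and 12.97 in silica lungs and 12.58, 12.70 and 12.86 in air lungs, so that the groups overlapped. Both calls held in every alternative tried, including the omission of any 1 array. At 12 weeks the medians were 12.91 in silica and 12.91 in air lungs, a change of -0.01 ± 0.04.

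Pdia6, a protein disulfide isomerase that also acts with BiP, stood at 12.22, 12.34 and 12.39 in silica lungs at 3 weeks and at 12.09, 12.12 and 12.19 in air lungs. The groups lay apart, and the gene rose by 0.19 ± 0.04 (limma adjusted p = 0.00328). At 6 weeks it rose by 0.13 ± 0.04 (limma adjusted p = 0.0378), with overlapping groups, and this call was lost on leaving out any of 9 of the 12 arrays (adjusted p up to 0.102). Median scaling, the authors' log2 values and the fit of the 6-week arrays alone ended the 6-week call too. Pdia6 changed by 0.11 at 12 weeks (limma adjusted p = 0.0557), not called, and passed there in 8 alternatives, among them the authors' log2 values. Pdia4, another isomerase, rose by 0.18 ± 0.06 at 3 weeks and by 0.17 ± 0.06 at 6 weeks (limma adjusted p = 0.0403 and 0.0473). Its levels overlapped at both weeks, and 7 and 9 of the 12 single omissions ended the call, as did median scaling (adjusted p = 0.0804 and 0.291). Dnajc3 (p58IPK), a J-domain partner of BiP that also inhibits kinases of the initiation factor eIF2 alpha, was higher at 6 and 12 weeks. At 12 weeks its levels were 10.32, 10.55 and 10.77 in silica lungs, against 10.12, 10.26 and 10.47 in air lungs. Of the 6 silica lungs 1 fell into the air range, and the rise of 0.29 ± 0.06 (limma adjusted p = 0.000161) held on every single omission, but reached an adjusted p of only 0.0502 under median scaling. At 6 weeks it rose by 0.16 ± 0.06 (limma adjusted p = 0.0467) with the groups apart, a call that 9 of 12 single omissions ended.

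Pdia5 and Pdia2, both disulfide isomerases, fell at 12 weeks with no overlap between groups. Pdia5 stood at 8.90, 9.04 and 9.14 in silica lungs and at 9.19, 9.30 and 9.44 in air lungs, a change of -0.26 ± 0.06 (limma adjusted p = 0.000945). Pdia2, an isomerase best known from the pancreas, had levels of 4.88, 5.61 and 5.73 in silica and 5.74, 6.03 and 6.29 in air lungs. It changed by -0.57 ± 0.15 (1.48-fold lower, limma adjusted p = 0.00591), or by -0.45 (adjusted p = 0.0104) without the 2 separate arrays, the lowest silica value being that of replicate 3. The size of this change varied with the background correction, at -0.07 when all probes set the background, -0.36 with none and -0.17 in the authors' log2 values, while the call was kept in each. At 3 and 6 weeks its changes were 0.16 ± 0.15 and -0.02 ± 0.15, and the difference between 12 and 3 weeks had an adjusted p of 0.0565. Dnajc10 (ERdj5), a reductase with a J domain, fell at 12 weeks by 0.15 on the log2 scale (limma adjusted p = 0.0357), but without silica replicate 3 and the other separate array the change was -0.11 (adjusted p = 0.0898). The 12-week call was also lost in 5 of 12 single omissions (adjusted p up to 0.130). Its change at 6 weeks was -0.14 (limma adjusted p = 0.0723), not called, and it passed there in 3 alternatives. All silica lungs of 6 weeks (9.66 to 9.87) lay below all air lungs (9.88 to 10.02) for Dnajc10. The remaining endoplasmic reticulum genes did not pass at any week. Hsp90b1 (GRP94), the Hsp90 of this compartment, changed by 0.18 ± 0.06, 0.06 ± 0.06 and -0.06 ± 0.06 at 3, 6 and 12 weeks, with an adjusted p of 0.0552 at 3 weeks and 5 alternatives in which it passed. Pdia3 (ERp57) changed by 0.06, 0.22 and 0.10, Dnajb9 (ERdj4) by -0.13, 0.09 and -0.13, and Hspa13 by 0.02, 0.01 and -0.09.

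**Figure D2:**
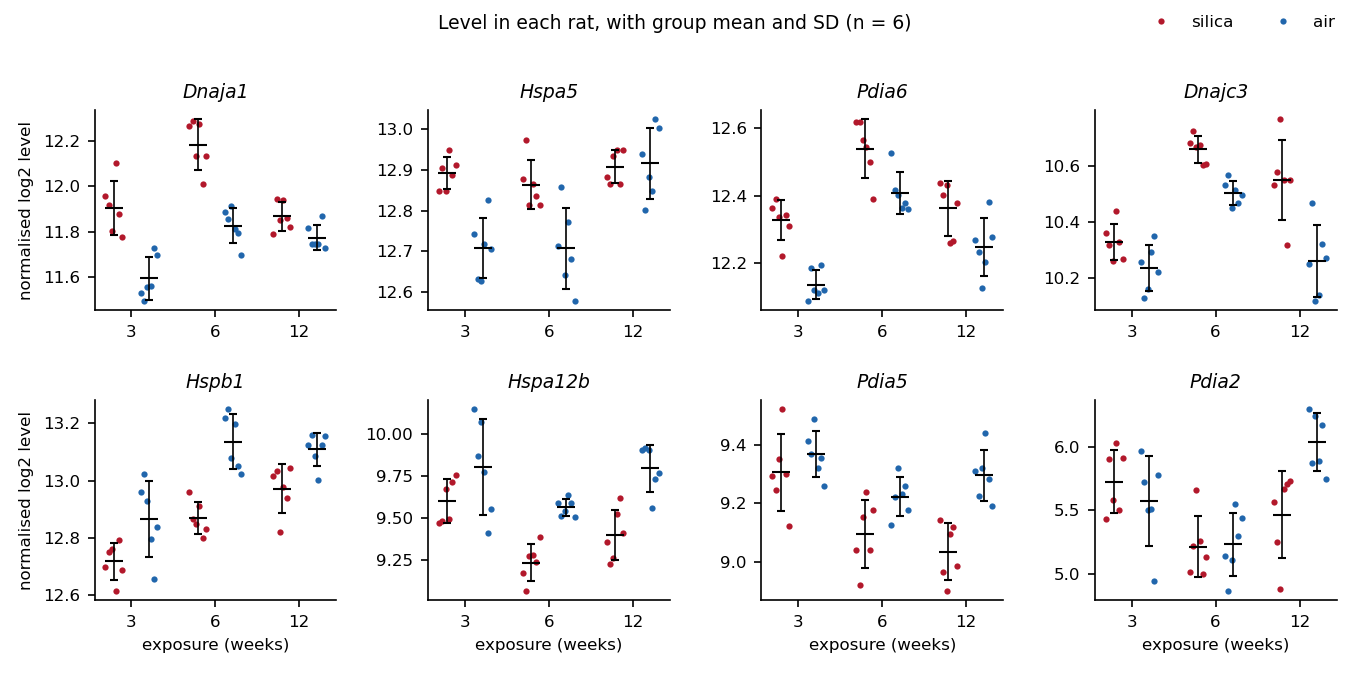
Normalised log2 level of 8 chaperone genes in each rat (points), silica in red and air in blue, at 3, 6 and 12 weeks, with the group mean and SD (n = 6). Dnaja1 lies above its air group in every silica lung at 3 and 6 weeks, and Pdia5 and Pdia2 lie below theirs in every silica lung at 12 weeks.

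Dnajb11 (ERdj3), a further BiP partner, was 1 of the 13 members that did not enter the tests. Its probe had a median raw intensity of 327, far above that of the others left out (at most 52.9), yet was called detected on 0 arrays, and its detection p-values do not lie on the grid of the other probes. With no filter on detection, Dnajb11 rose by 0.18 ± 0.05 at 3 weeks (limma adjusted p = 0.0136) and by 0.18 ± 0.05 at 6 weeks (limma adjusted p = 0.00917), and changed by 0.07 ± 0.05 at 12 weeks. At 3 weeks its levels were 8.30, 8.36 and 8.38 in silica lungs, against 8.14, 8.16 and 8.22 in air lungs, with no overlap. The other 12 were Dnajb8, Dnajb12, Dnajc5b, Dnajc5g, Dnajc6, Dnajc28, Hsp90ab1, Hspa12a, Hspa1b, Hspb3, Hspb9 and Hsph1, detected on at most 3 arrays. The detection p-values of Hsp90ab1, a constitutive Hsp90, lie off the grid as well, and its median raw intensity was 47.1. Hspa1b and Hsph1, the heat-inducible Hsp70 and its exchange factor, were detected on 0 arrays.

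Cell type markers were read beside the endoplasmic reticulum members. Of 9 type II pneumocyte markers tested, 4 were higher at 3 weeks, 7 at 6 weeks and 6 at 12 weeks, with none lower, also at 12 weeks, when 3 of the 4 called endoplasmic reticulum members were lower. Their summed intensity per lung ran from 76427 to 81411 in silica and from 65787 to 73034 in air lungs at 3 weeks, from 77707 to 85387 in silica and from 66612 to 72624 in air lungs at 6 weeks, and from 77153 to 85852 in silica and from 67129 to 75444 in air lungs at 12 weeks. Of 5 plasma cell markers tested, 1, 3 and 1 were higher, Xbp1 and Derl3 among them, which the unfolded protein response list below also holds. Prdm1 and Irf4, which define plasma cells, were not detected, and the list's summed intensity ran from 6574 to 7048 in silica and from 5574 to 6118 in air lungs at 6 weeks. Of 6 alveolar macrophage markers 4 were higher at each week, and of 6 type I pneumocyte markers 3, 2 and 3 were lower, while of 6 neutrophil markers 1, 2 and 2 were higher and 1 was lower at each week. Marco and Chi3l3 of the macrophage list, S100a9, Ngp, Ltf and Np4 of the neutrophil list and Spag6 of the ciliated list were not detected. None of 8 ciliated cell or 4 club cell markers was called in limma. The part of these cells in the changes of the endoplasmic reticulum genes was not tested.

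In the cytosol and nucleus, 29 members were tested. At 3 weeks 1 was higher and 1 lower, at 6 weeks 1 and 3, and at 12 weeks 0 and 3. These are 6.90%, 13.8% and 10.3% of them, all below the 13.6%, 17.3% and 25.9% of all tested genes. Dnaja1, a main J-domain partner of cytosolic Hsp70, stood at 11.78, 11.90 and 12.10 in silica lungs at 3 weeks, against 11.49, 11.56 and 11.73 in air lungs. At 6 weeks it stood at 12.01, 12.20 and 12.29 in silica lungs, against 11.69, 11.83 and 11.91 in air lungs. Every silica lung lay above every air lung at both weeks, and the gene rose by 0.31 ± 0.05 (limma adjusted p = 0.00011) and 0.36 ± 0.05 (limma adjusted p = 5.97e-06), calls that held in every alternative. At 12 weeks the change was 0.09 ± 0.05 (limma adjusted p = 0.206) and the groups overlapped. Dnajc7 (TPR2), which binds both Hsp70 and Hsp90, fell at 3 weeks with the groups apart. It had 8.90, 8.99 and 9.05 in silica lungs and 9.15, 9.18 and 9.30 in air lungs, a change of -0.21 ± 0.05 (limma adjusted p = 0.00445), and its adjusted p was 0.480 under median scaling.

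Of the small heat shock proteins, Hspb1 and Hspb2 passed the test, both lower in silica lungs. Hspb1 (Hsp27), a small heat shock protein that also bears on actin filaments, fell by 0.27 on the log2 scale at 6 weeks (SE 0.05, limma adjusted p = 0.000292) and by 0.14 at 12 weeks (limma adjusted p = 0.0488). The 6-week levels were 12.80, 12.86 and 12.96 in silica lungs and 13.02, 13.14 and 13.25 in air lungs, with no overlap. At 3 weeks it changed by -0.15 ± 0.05 (limma adjusted p = 0.0501) and passed in 9 alternatives, among them the fit without the 2 separate arrays. The 12-week call was lost in 8 of 12 single omissions, and the 6-week adjusted p was 0.180 under median scaling. Hspb2, a muscle form, fell at 6 weeks by 0.28 on the log2 scale (limma adjusted p = 0.0243), with an adjusted p of up to 0.0773 on leaving out air replicates 3, 4 or 5 or silica replicate 1. Its adjusted p was 0.210 under median scaling, and when all probes set the background its change was -0.09 (adjusted p = 0.0811). Hspb6 (Hsp20) changed by -0.13, -0.17 and -0.14 at the 3 weeks and Hspb8 by 0.02, -0.09 and -0.08, neither called. At 12 weeks Hspb6 passed in 4 alternatives, among them the fit without the 2 separate arrays (lowest limma adjusted p = 0.0112). Hspb7, a heart and muscle form, was detected on 12 arrays, was not called at any week and had the largest SE of all members, 0.22. Of 7 heart muscle markers tested none was called, but their mean level ran from 4.75 to 8.83 over the lungs, and Nppa, Myl2 and Myl3 were not detected. Of 7 smooth muscle markers 0, 1 and 3 were lower at 3, 6 and 12 weeks, with a summed intensity of 3952 to 4819 in silica and 4262 to 5297 in air lungs at 6 weeks. The part of muscle in these small heat shock protein values was not tested.

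Hspa12b, an Hsp70 relative found mainly in endothelium, had 9.07, 9.26 and 9.39 in silica lungs at 6 weeks, against 9.51, 9.57 and 9.64 in air lungs. At 12 weeks it had 9.23, 9.39 and 9.62 in silica lungs, against 9.56, 9.84 and 9.92 in air lungs. The groups lay apart at 6 weeks and overlapped at 12 weeks, and the gene fell by 0.33 ± 0.09 (limma adjusted p = 0.00894) and 0.40 ± 0.09 on the log2 scale (limma adjusted p = 0.00117). Under median scaling the 6-week adjusted p was 0.0784. At 3 weeks it changed by -0.20 ± 0.09 (limma adjusted p = 0.131), and it passed there without air replicate 5. Of 4 endothelial markers 3 (Emcn, Car4, Cldn5) were lower at each week. The other marker was not called at any week, and at 12 weeks it went the other way, with a change of 0.29. The list's summed intensity at 6 weeks ran from 15682 to 18054 in silica and from 19321 to 21857 in air lungs. At 12 weeks the list's sum ran from 14731 to 16576 in silica and from 18739 to 20839 in air lungs. Its part in the fall of Hspa12b was not tested. Hspa2, an Hsp70 best known from testis, fell at 12 weeks by 0.36 on the log2 scale (SE 0.11, limma adjusted p = 0.015), with an adjusted p of 0.0533 without silica replicate 2 and a change of -0.07 when all probes set the background and -0.14 in the authors' log2 values. Its levels were 5.82, 6.15 and 6.42 in silica lungs and 6.20, 6.51 and 6.61 in air lungs.

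Several well-known members of the cytosol and nucleus were tested and not called at any week. Hsp90aa1, the inducible Hsp90, changed by 0.13 ± 0.11, 0.25 ± 0.11 and -0.16 ± 0.11 at 3, 6 and 12 weeks, with 95% intervals of -0.11 to 0.36, 0.01 to 0.48 and -0.40 to 0.07. Dnajb1 (Hsp40), a classic heat-induced partner of Hsp70, changed by 0.13, 0.09 and 0.10 (SE 0.06), and Hspa4, an Hsp70 exchange factor, by -0.06, 0.20 and -0.13 (SE 0.08). Dnaja2 changed by 0.01, 0.03 and 0.03 (SE 0.04) and Dnajb4 by -0.13, -0.02 and 0.15 (SE 0.12). Dnajb6, a J-domain protein that holds back aggregation, had its silica lungs all below the air lungs at 6 weeks, at 10.12, 10.24 and 10.32 in silica lungs against 10.35, 10.42 and 10.43 in air lungs, yet its change of -0.17 ± 0.06 had an adjusted p of 0.0524. It passed there in 6 alternatives. At 12 weeks Dnajb6 changed by -0.08. It passed there without silica replicate 3, without the 2 separate arrays and with array weights (lowest limma adjusted p = 0.00314). The array has no probe for Hspa8 or Hspa1a under the annotation used here. Probes of near-identical copies such as Hspa1b and its relatives may share signal, which was not tested.

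Of the 7 mitochondrial members tested, none was called at 3 or 6 weeks and 1 was higher at 12 weeks. That 1 gene is 14.3% of them, beside 25.9% of all tested genes. Hspe1 (Hsp10), the lid of the mitochondrial Hsp60 chamber, had 9.64, 9.82 and 9.96 in silica lungs at 12 weeks, against 9.55, 9.64 and 9.72 in air lungs. It rose by 0.18 ± 0.06 (limma adjusted p = 0.0185) with overlapping groups, with an adjusted p of 0.0566 without silica replicate 1 and 0.473 under median scaling. Hspa9 (mortalin), the mitochondrial Hsp70, changed by 0.08, 0.11 and 0.06 and Dnaja3, its J-domain partner, by 0.03, 0.05 and 0.05, none called. At 6 weeks all Hspa9 levels in silica lungs (10.72 to 10.90) lay above those in air lungs (10.64 to 10.71), with a limma adjusted p of 0.0726. Hspa9 passed there in 3 alternatives, the authors' log2 values among them. At 12 weeks Hspa9 passed in 3 alternatives, among them the fit without the 2 separate arrays (lowest limma adjusted p = 0.0292). Hspd1 had no probe. Of 5 tested members with no compartment assigned, Dnajc18 fell at 6 weeks by 0.16 on the log2 scale (limma adjusted p = 0.0401), a call that 8 of 12 single omissions ended. At 12 weeks Dnajc18 changed by -0.11, not called. It passed there in 4 alternatives, among them the fit without the 2 separate arrays (lowest limma adjusted p = 0.00442). Dnajc25 rose at 12 weeks by 0.22 ± 0.07 (limma adjusted p = 0.0112), with 6.67, 6.74 and 6.91 in silica lungs above 6.45, 6.54 and 6.61 in air lungs. Every alternative kept the call, with a change of 0.06 when all probes set the background and 0.11 in the authors' log2 values. Dnajc16 rose at 12 weeks by 0.15 ± 0.05 (limma adjusted p = 0.0271), was detected on 4 of 6 silica and 0 of 6 air lungs and was at least 1.01-fold higher, a bound against the dimmest detected signal, and without the 2 separate arrays its adjusted p was 0.0855. Its change was 0.01 when all probes set the background and 0.03 in the authors' log2 values, neither of them called. The 20 tested members not yet described were not called at any week, and their log2 changes ran from -0.14 (Dnajc27) to 0.24 (Hspa4l) at 3 weeks, from -0.17 (Dnajc17) to 0.26 (Dnajb13) at 6 weeks and from -0.17 (Dnajc17) to 0.19 (Dnajc21) at 12 weeks. Among these are Hspbp1 and Hspbap1, which the symbol rule takes in as partners of heat shock proteins and not as chaperones.

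The median log2 change of the endoplasmic reticulum members was 0.09, 0.09 and -0.06 at 3, 6 and 12 weeks, and that of the cytosol and nucleus members was -0.01, -0.03 and -0.08. The difference between these medians was 0.10, 0.11 and 0.02, with no test, since the members were chosen with results known. It ranged over the alternatives from 0.05 to 0.16 at 3 weeks, from 0.07 to 0.15 at 6 weeks and from -0.04 to 0.06 at 12 weeks, so that its sign turned at 12 weeks. In single lungs, taking the median deviation of each compartment from the air mean of the week, the endoplasmic reticulum lay above 0 in 6 of 6 silica lungs at 3 weeks, 6 of 6 at 6 weeks and 2 of 6 at 12 weeks, against 4, 2 and 3 of 6 air lungs. The cytosol and nucleus lay above 0 in 3, 1 and 0 of 6 silica lungs, against 3, 2 and 5 of 6 air lungs. Silica replicate 3 at 12 weeks had the lowest endoplasmic reticulum deviation of all lungs, -0.31, and the other silica lungs of that week lay between -0.05 and 0.03. Mitochondrial members lay above 0 in 5, 6 and 6 of 6 silica lungs, against 2, 4 and 3 of 6 air lungs.

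**Figure D3:**
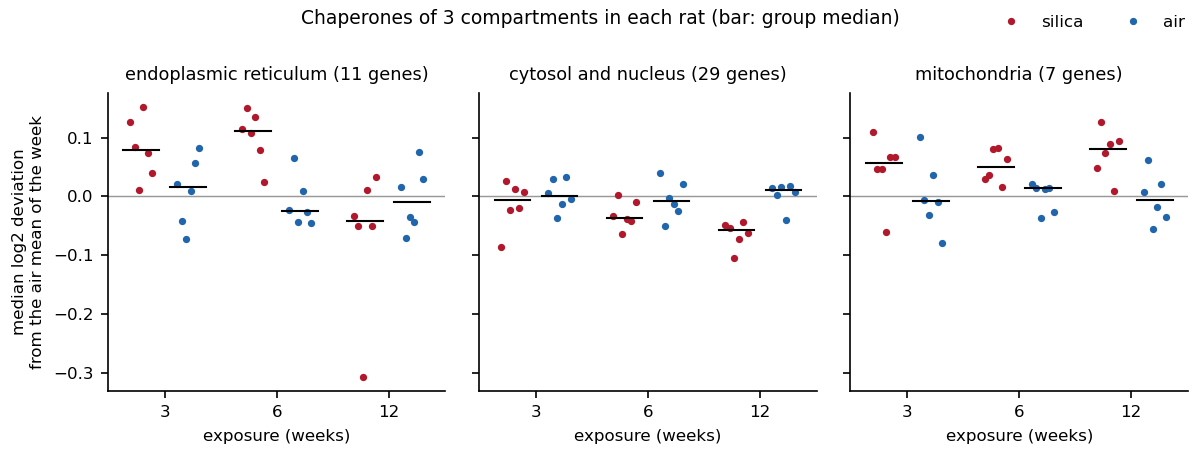
Median log2 deviation of the tested members of each compartment from the air mean of the week, for each rat (points, silica red and air blue) with the group median (bar). All 6 silica lungs lie above 0 for the endoplasmic reticulum at 3 and 6 weeks, and all 6 lie below 0 for the cytosol and nucleus at 12 weeks.

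No member was called when the silica effect itself was compared between weeks. For 6 against 3 weeks, limma called 0 of 52 members (4 at an unadjusted p under 0.05), where 0.0771% of all genes were called (0.0661% higher, 0.011% lower) and 8.28% had an unadjusted p under 0.05. For 12 against 3 weeks it called 0 members (14 at an unadjusted p under 0.05), where 2.86% of all genes were called (1.53% higher, 1.33% lower) and 22.4% had an unadjusted p under 0.05, and for 12 against 6 weeks 0 (10 at an unadjusted p under 0.05), where 0.011% were called and 12.8% had an unadjusted p under 0.05. Median scaling shifted the median of all genes to -0.12 in the comparison of 12 with 3 weeks. The weeks at which a chaperone passed or missed the threshold are therefore not shown to differ.

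Related folding genes outside the symbol rule were taken from lists of their own. Of 27 tested genes of the unfolded protein response and endoplasmic reticulum folding, 3 rose and 0 fell at 3 weeks, 7 and 0 at 6 weeks, and 4 and 2 at 12 weeks, with medians of 0.08, 0.09 and 0.03. The shares called in either direction were 11.1%, 25.9% and 22.2%, beside 13.6%, 17.3% and 25.9% of all tested genes. By that measure those at 3 and 12 weeks lay below the background. The list's calls at 3 and 6 weeks were all higher, so 11.1% and 25.9% lay above the 7.51% and 8.8% of all genes called higher. Of all genes, 6.08% and 8.5% were lower at those weeks, and 11.7% were higher and 14.2% lower at 12 weeks. Sdf2l1, a partner of BiP and its J-domain proteins, had 7.47, 7.63 and 7.78 in silica lungs at 12 weeks, against 6.94, 7.16 and 7.26 in air lungs. It rose by 0.37, 0.43 and 0.50 (SE 0.09) at 3, 6 and 12 weeks (limma adjusted p = 0.00407, 0.000588 and 5.6e-05), with no overlap at 12 weeks. Every alternative kept these calls, but when all probes set the background the changes were 0.13, 0.17 and 0.23, and in the authors' log2 values 0.20, 0.22 and 0.30. Manf, a secreted stress-induced protein of the endoplasmic reticulum, rose at 6 weeks by 0.26 ± 0.06 (limma adjusted p = 0.00212), and Derl3, of the degradation pathway, by 0.32 ± 0.11 (limma adjusted p = 0.0361). The Derl3 call was lost in 10 of 21 alternatives, 6 of them omissions of 1 array (adjusted p up to 0.111), and its change was 0.03 when all probes set the background. Xbp1, named after its values were seen and a transcription factor of the response, rose by 0.21 ± 0.05 at 6 weeks (limma adjusted p = 0.00137) and by 0.15 ± 0.05 at 12 weeks (limma adjusted p = 0.0164), with an adjusted p at 12 weeks of 0.0536 without the 2 separate arrays and 0.283 under median scaling. Eif2ak3 (PERK), a kinase of the response, fell at 12 weeks by 0.23 on the log2 scale (limma adjusted p = 0.00233).

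Of 17 tested genes of the heat shock response and the cytosolic co-chaperones, 0 rose and 1 fell at 3 weeks. At 6 weeks 3 rose and 1 fell, and at 12 weeks 1 rose and 3 fell. The shares called were 5.88%, 23.5% and 23.5%, beside 13.6%, 17.3% and 25.9% of all tested genes. Stub1 (CHIP), the ubiquitin ligase that works on Hsp70 clients, fell at all 3 weeks, by 0.15, 0.24 and 0.20 on the log2 scale (limma adjusted p = 0.0155, 8.5e-05 and 0.000676). At 6 weeks its levels were 10.21, 10.33 and 10.45 in silica lungs and 10.52, 10.58 and 10.66 in air lungs, with no overlap, and median scaling gave an adjusted p of 0.699 at 3 weeks and 0.0621 at 6 weeks. Chordc1, an Hsp90 partner, rose at 6 weeks by 0.29 ± 0.07 (limma adjusted p = 0.00308, 0.0513 under median scaling). Stip1 (HOP), which links Hsp70 to Hsp90, rose by 0.28 ± 0.09 (limma adjusted p = 0.0319), a call ended by 6 of 12 single omissions, by median scaling (adjusted p = 0.171) and by the background from all probes (adjusted p = 0.0598). Cryab, a small heat shock protein of muscle and lens that the symbol rule leaves out, fell at 12 weeks by 0.26 on the log2 scale (limma adjusted p = 0.000705), with all silica lungs below all air lungs. Of 10 tested genes of the TRiC chamber and prefoldin, which fold actin and tubulin, 3 rose at 6 weeks, Cct2 by 0.19, Cct5 by 0.16 and Tcp1 by 0.15 (limma adjusted p = 0.00733, 0.0346 and 0.0303), and each missed the threshold under median scaling. Pfdn5 fell at 12 weeks by 0.16 on the log2 scale (limma adjusted p = 0.0041, 0.0584 under median scaling). The shares of this list called were 0%, 30% and 10% at 3, 6 and 12 weeks, beside the same shares of all tested genes. Of 6 further mitochondrial folding genes, Hscb fell at 6 weeks by 0.14 on the log2 scale (limma adjusted p = 0.038). That is 16.7% of them, near the share of all tested genes, and 7 of 12 single omissions and median scaling (adjusted p = 0.425) ended the call.

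**Figure D4:**
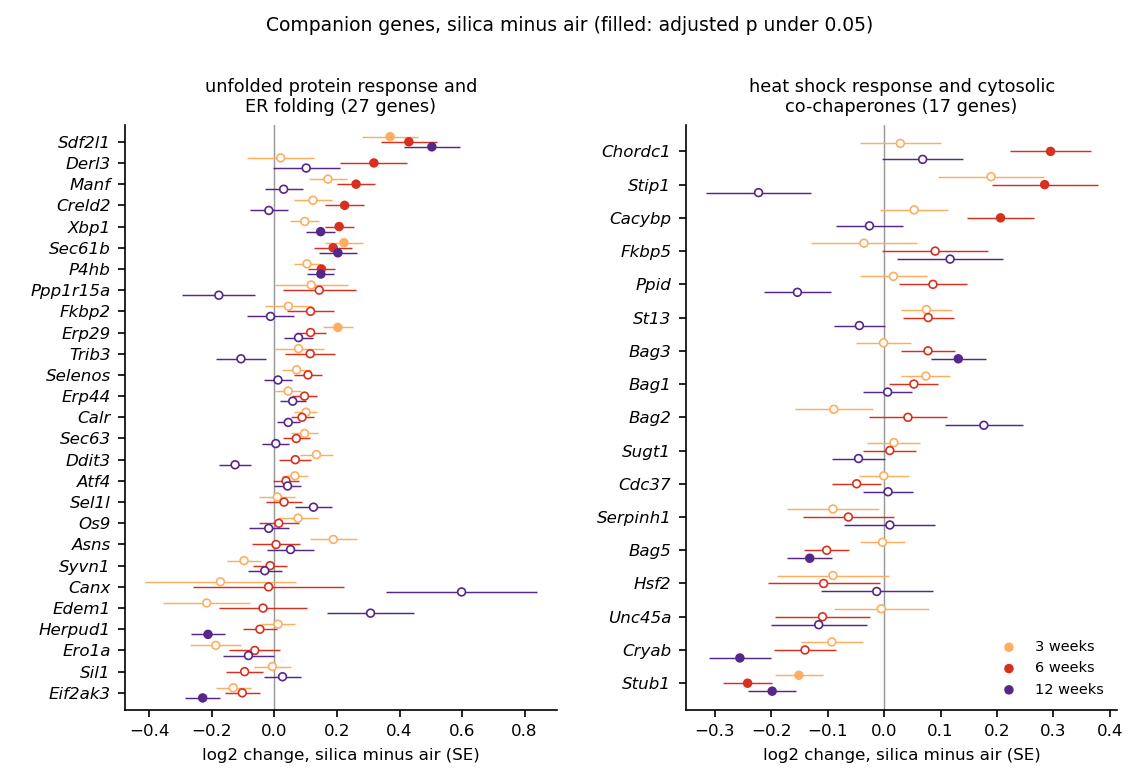
Log2 change, silica minus air, with its SE for the 27 genes of the unfolded protein response and endoplasmic reticulum folding (left) and the 17 genes of the heat shock response and cytosolic co-chaperones (right) at 3, 6 and 12 weeks, filled where the adjusted p was under 0.05. Sdf2l1 is filled on the higher side and Stub1 on the lower side at all 3 weeks.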

How the data were processed

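Lung RNA of 36 rats was hybridised to Illumina rat arrays. The deposited non-normalised table gives, for each probe, its mean bead intensity and a detection p-value, as named in its column headers per the file headers. A second deposited table holds log2 values the authors had processed. Tools listed in the submitters' processing notes are BeadStudio, lumi and limma, with no versions, and the transformation behind those log2 values is not known. Symbols came through RefSeq for 64 of the 65 members, and Hspa1b kept the name on the array.

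The intensities were corrected by a normal-exponential model, whose background came from the detection p-values of the 21204 probes on a grid of 1 over 825 (588 were off it), with an offset of 16, then quantile normalised and put on the log2 scale. Genes needed a detection p under 0.05 on at least 6 arrays, and the brightest probe stood for a gene. One limma model (3.58.1, R 4.3.3) with 6 group means had 30 residual degrees of freedom, and its two-sided tests were adjusted by Benjamini-Hochberg over 9078 genes. In simulated 6-week data, 24% of 100 changes of 0.2 and 88% of 100 changes of 0.4 on the log2 scale were recovered, with 4 false calls. No other gene was changed there and noise was drawn for each gene alone, whereas 17.3% of genes were called in the real data. The adjustment is stricter when fewer genes change, so these shares are not the recovery in the real data.

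Genes named are members called at any week, well-known members and, of each related list, the called genes with the 4 largest changes. The members, lists and compartments were chosen with earlier results of these data known, and the endoplasmic reticulum, cytosol and mitochondria were assigned by hand. Rats with the same replicate number in the titles were not shown to deviate together: 7 of 18 pairs had a correlation over 0.1 (range -0.27 to 0.44). In 6 of the 18 the silica array correlated best with the air array of its own number, out of 6 air arrays, a count not tested against chance. Alternatives changed the background, scaling, filter, probes, weights, block and arrays. The fit without 2 arrays was chosen after seeing the data.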

Additional observations from a re-analysis of the deposited data

Results flagged for a closer look

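Over 47 named genes and 6 groups of 6 rats, 282 sets of levels were examined for 1 lung far from the others, and 23 had a gap to the nearest value that, as a share of the group's range, was above Dixon's 95% critical value. Chance alone gives about 1 in 20 such sets. Silica replicate 3 at 12 weeks, which also stood apart over all genes, accounted for 9 of them. Its levels were high for Dnajb6 (10.37, other silica lungs 9.79 to 9.98) and Hscb (10.42) and low for Dnajb9 (8.17), Dnajc10 (9.82), Hspb2 (6.87), Pdia4 (9.42), Eif2ak3 (7.49), Stip1 (8.43) and Cryab (10.60). Air replicate 5 at 3 weeks, the other array apart, was low for Hsp90b1 (11.65, other air lungs 11.84 to 11.92), Hspb2 (7.003), Stip1 (8.54) and Hscb (10.04). In silica lungs at 3 weeks, replicate 4 was high for Hspa9 (11.02) and low for Hspe1 (9.50, the others 9.80 to 9.91), replicate 3 high for Dnajc18 (8.74), replicate 6 high for Dnajc25 (6.65) and replicate 2 high for Cryab (11.34). In silica lungs at 6 weeks, replicate 4 was high for Dnajc16 (5.13). Among air lungs, the high values were Dnajc7 in replicate 6 (9.25), Pdia6 in replicate 1 (12.53) and Tcp1 in replicate 3 (11.38) at 6 weeks, and Tcp1 in replicate 2 at 12 weeks (11.51).

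The silica effect on Ddit3 (CHOP), a transcription factor of the unfolded protein response, differed between 12 and 3 weeks by -0.26 ± 0.07 (limma adjusted p = 0.0443). Its change was -0.13 at 12 weeks and 0.13 at 3 weeks, neither called, and 15 of 24 single omissions and the fit without the 2 separate arrays (adjusted p = 0.137) ended the call. Ddit3 was named after its values were seen.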

How the results depend on the processing

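Single-gene calls never turned direction: over the alternatives, with the omission of single arrays taken at its highest adjusted p, 433 values kept the call and 72 missed the threshold. Dnaja1 and Hspa5 at 3 and 6 weeks, Pdia6 at 3 weeks, and Dnajc25, Hspa12b, Pdia2 and Pdia5 at 12 weeks kept theirs throughout, though not their size: with the background from all probes Pdia2 and Dnajc25 shrank to -0.07 and 0.06. The count of chaperones called at 3 weeks (5) became 8 with array weights and 8 without the 2 separate arrays, and lay between 4 and 6 on leaving out single arrays. At 6 weeks the count (9) became 2 with median scaling, 17 with array weights and 14 where the 6-week arrays were fitted alone, and lay between 4 and 14 on leaving out single arrays: 4 without air replicate 3, 5 without air replicate 5 or silica replicates 1, 2 or 4, and 14 without silica replicate 6. At 12 weeks it lay between 7 and 14. The 0 genes differing between 12 and 3 weeks became 1 with the background from all probes, with no background correction and with array weights, and between 0 and 3 on leaving out single arrays: at 3 weeks 1 without air replicate 1 and 2 without silica replicate 1, and at 12 weeks 1 without air replicate 2, 2 without silica replicate 4 and 3 without silica replicate 5. With the replicate number as a block, though the numbers are not shown to pair the rats, 7, 10 and 11 chaperones were called at 3, 6 and 12 weeks. The authors' log2 values gave 7, 10 and 10. The share of all genes called under each setting is not set beside these counts, so they show nothing particular to chaperones. The cause of these shifts was not tested. Calls with changes near 0.2 on the log2 scale differed in this. At 3 weeks those of Hspa5 and Pdia6 held throughout, while that of Pdia4 was lost on single omissions.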
